A study of Sus scrofa with 6 samples.

Results

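Regions of open chromatin that held a peak at embryonic day 18 (E18) and at no later stage were described in pig embryos. Overlapping peaks (by 1 bp or more) of 6 single-cell ATAC-seq libraries were merged, and a merged region was taken when it held a peak of both E18 libraries and no peak of the 4 libraries from embryonic days 21 (E21) and 28 (E28). This rule gave 37531 of 294825 merged regions (12.7%). There was 1 library for each stage and breed, and each pooled embryos of a single sow, so that differences between embryos could not be measured. The groups were E18 ZZ, E21 ZZ and E28 ZZ from Tibetan pigs and E18 DZ, E21 DZ and E28 DZ from Duroc × Tibetan crosses, with no treatment or engineered allele. Somites were dissected at E18 and E21 and myotomes at E28, so at E28 the stage and the tissue cannot be told apart. The peak calls chose the regions, so every value that sets E18 against the later stages is a description, with no test.

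Single-cell ATAC-seq marks open DNA by the cuts of the Tn5 transposase, and a barcode on every fragment names the droplet, called a cell here. Open regions at start sites are mostly promoters and are shared by many tissues, whereas open regions in introns and between genes are often enhancers, which differ between cell types and stages. Somites are the blocks of mesoderm along the neural tube. They give rise to the myotome, which forms skeletal muscle, to the sclerotome, which forms vertebrae and ribs, and to the dermis of the back, and neural tube, ectoderm, vessels and neural crest lie against them.

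The central 300 bp of 9 E18-only regions are printed below because they carry the most open cases and, for each tested cluster of E18 cells but 1, a region that was higher there. For the clusters other than the neural progenitor-like one, the region printed was chosen among the 5 of largest fold with its motif matches known, so these sequences are examples and not typical members. The sequences are on the plus strand of the RefSeq assembly Sscrofa11.1, named by the gene with the nearest protein-coding start site. Capitals mark every match, on either strand, to the motif letters that were searched in all regions. The letters of the GC box were GGGCGG, of the E-box of bHLH factors CAGCTG, of GATA factors AGATAA, of TCF and LEF factors CTTTGAT, of SOX factors ACAATGG and of the octamer of POU factors ATTTGCAT. CDX and posterior HOX factors were searched by TTTATNG, MEIS factors by TGACAG, other homeobox factors by TAATTA, and AP-1 by TGANTCA. TEAD factors were searched by GGAATG, FOX factors by GTAAACA, T-box factors by AGGTGTGA and the half-site of nuclear receptors by AGGTCA. The longer CTCF, MEF2 and NFI motifs were searched too. The MEIS letters and the E-box can share bases, as in the BNC2 region, where 1 run in capitals holds both, and 2 GATA matches abut in the region of LOC102167273.
NR2F2, distal, the most open by the mean of both libraries, chr7:83495280-83495579: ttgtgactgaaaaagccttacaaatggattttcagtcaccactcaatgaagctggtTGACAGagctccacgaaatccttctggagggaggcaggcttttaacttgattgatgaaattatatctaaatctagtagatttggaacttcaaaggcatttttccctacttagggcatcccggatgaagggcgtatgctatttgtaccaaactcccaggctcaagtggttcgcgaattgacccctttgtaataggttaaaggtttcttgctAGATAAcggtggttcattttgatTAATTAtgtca
BNC2, distal, the most open in E18 ZZ, chr1:206622834-206623133: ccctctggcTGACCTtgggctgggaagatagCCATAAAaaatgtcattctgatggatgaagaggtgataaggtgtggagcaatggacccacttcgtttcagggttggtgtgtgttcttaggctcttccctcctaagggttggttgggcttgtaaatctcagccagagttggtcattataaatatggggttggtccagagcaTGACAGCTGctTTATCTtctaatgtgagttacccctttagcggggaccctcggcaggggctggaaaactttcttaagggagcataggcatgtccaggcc
LOC102167273, intron, higher in cluster 0, chr6:50839222-50839521: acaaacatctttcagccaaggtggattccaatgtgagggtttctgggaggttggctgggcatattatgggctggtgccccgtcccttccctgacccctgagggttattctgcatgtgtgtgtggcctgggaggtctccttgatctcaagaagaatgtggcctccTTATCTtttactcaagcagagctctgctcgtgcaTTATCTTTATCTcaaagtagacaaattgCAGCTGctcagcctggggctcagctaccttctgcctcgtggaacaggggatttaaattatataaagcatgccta
AJAP1, distal, higher in neural progenitor-like cells, chr6:66294411-66294710: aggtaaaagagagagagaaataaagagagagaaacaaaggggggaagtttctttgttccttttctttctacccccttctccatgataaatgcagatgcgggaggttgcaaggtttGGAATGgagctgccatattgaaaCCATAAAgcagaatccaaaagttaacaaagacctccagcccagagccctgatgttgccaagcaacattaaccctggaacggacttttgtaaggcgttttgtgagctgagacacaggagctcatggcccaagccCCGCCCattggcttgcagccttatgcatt
GALNT7, intron, higher in fibroblast and mesenchyme-like cells, chr14:17096561-17096860: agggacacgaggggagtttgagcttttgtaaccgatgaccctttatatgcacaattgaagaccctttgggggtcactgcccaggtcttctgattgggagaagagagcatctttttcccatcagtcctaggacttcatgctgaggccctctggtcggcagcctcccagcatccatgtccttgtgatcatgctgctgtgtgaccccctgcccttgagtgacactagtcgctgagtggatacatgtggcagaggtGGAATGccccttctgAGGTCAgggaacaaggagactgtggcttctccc
ANO3, intron, higher in myogenic-like cells, chr2:33898661-33898960: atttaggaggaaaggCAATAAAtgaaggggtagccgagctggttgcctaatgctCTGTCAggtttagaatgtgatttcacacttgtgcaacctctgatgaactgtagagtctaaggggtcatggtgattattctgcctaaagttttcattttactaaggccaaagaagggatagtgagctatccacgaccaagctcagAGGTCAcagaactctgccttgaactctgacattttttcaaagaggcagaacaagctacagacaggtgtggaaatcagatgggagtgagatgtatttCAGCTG
SPIDR, intron, higher in neural crest and glia-like cells, chr4:80344195-80344494: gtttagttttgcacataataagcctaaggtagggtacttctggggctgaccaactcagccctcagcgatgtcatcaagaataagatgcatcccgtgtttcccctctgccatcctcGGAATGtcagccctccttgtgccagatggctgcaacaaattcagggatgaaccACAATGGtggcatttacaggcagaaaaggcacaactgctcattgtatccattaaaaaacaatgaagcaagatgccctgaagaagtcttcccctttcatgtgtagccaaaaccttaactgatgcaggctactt
MARK2, intron, higher in epithelial-like cells, chr2:8208633-8208932: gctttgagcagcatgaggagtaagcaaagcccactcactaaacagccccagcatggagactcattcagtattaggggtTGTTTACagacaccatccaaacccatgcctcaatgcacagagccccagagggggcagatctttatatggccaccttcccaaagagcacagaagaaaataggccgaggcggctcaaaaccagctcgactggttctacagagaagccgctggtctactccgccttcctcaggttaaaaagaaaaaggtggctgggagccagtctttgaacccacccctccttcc
KDR, intron, higher in endothelial-like cells, chr8:41839406-41839705: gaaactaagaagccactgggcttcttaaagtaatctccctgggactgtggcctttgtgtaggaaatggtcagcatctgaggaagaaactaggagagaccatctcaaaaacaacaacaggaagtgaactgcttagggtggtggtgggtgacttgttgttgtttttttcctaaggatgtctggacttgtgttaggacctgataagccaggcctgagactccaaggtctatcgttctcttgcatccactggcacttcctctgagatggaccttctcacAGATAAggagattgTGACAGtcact

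The 6 libraries held between 131975 and 217138 peaks, and 9286 to 11243 barcodes were kept with 2000 to 30000 counts of Tn5 cut sites. The depth moved with the stage, with 133037579 (ZZ) and 124725894 (DZ) kept counts at E18, 106665140 to 109989839 at E21 and 89816504 to 98654857 at E28. The number of peaks fell in the same order, from 199846 and 217138 at E18 to 131975 and 137769 at E28. The part of this depth difference in the number of E18-only regions was not tested. Between 113 and 157 kept barcodes were shared by each pair of libraries, at most 1.46% of a library. Counts exist in the deposited tables only inside the peaks of a library, so an E18-only region has no count at E21 and E28 and the size of the difference between stages cannot be given. A peak was called on the whole library, and fewer cells of a type and less accessibility per cell cannot be told apart in such a call.

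Among the 176394 regions with a peak in both E18 libraries, the E18-only regions made up 21.3%, the share against which the gene lists below are read, and the other 138863 held a later peak. The E18-only regions outnumbered the regions with peaks in both E21 libraries alone (6505) and in both E28 libraries alone (6589), and 78533 regions held a peak of all 6 libraries. The count rested on both E18 libraries. A further 24653 regions held a peak in E18 ZZ and in no other library, and 10856 in E18 DZ and in no other.

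E18-only regions lay mostly in introns and between genes. Introns held 18171 of them (48.4%), distal sequence 14818 (39.5%), exons 2982 (7.95%), promoters, taken as 2 kb upstream of a start, 891 (2.37%), 3′ untranslated regions 490 (1.31%) and 5′ untranslated regions 179 (0.477%). Introns and distal sequence held most regions of the other sets too, with 40.5% and 34.8% for the regions with peaks at E18 and later, 51.0% and 42.4% for E21-only and 48.2% and 43.7% for E28-only regions. Regions with peaks at E18 and later lay in exons in 18.8% and in promoters in 4.12% of cases. Only 264 of the E18-only regions (0.703%) held a protein-coding start site, against 10.4% of the regions with a later peak. As merged regions the latter were wider (median of 986 bp against 443 bp). The median distance of E18-only regions to the nearest start site was 46859 bp. It was 35119 bp for the regions with peaks at E18 and later, 89236 bp for the E21-only and 75984 bp for the E28-only regions.

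Read the other way, the share of E18 regions that had no later peak was 1.79% where the region held a start site, 20.6% within 2 kb of one and between 22.1% and 23.9% from 2 to 500 kb. It reached 31.3% beyond 500 kb, where 1711 of 5471 regions were E18-only. By element the share was 10.3% in exons, 13.5% in promoters, 19.1% in 5′ untranslated regions, 22.7% in 3′ untranslated regions, 23.5% in distal sequence and 24.4% in introns. Regions that held a start site had by far the lowest share, and from 2 to 500 kb the share hardly moved with distance.

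**Figure D1:**
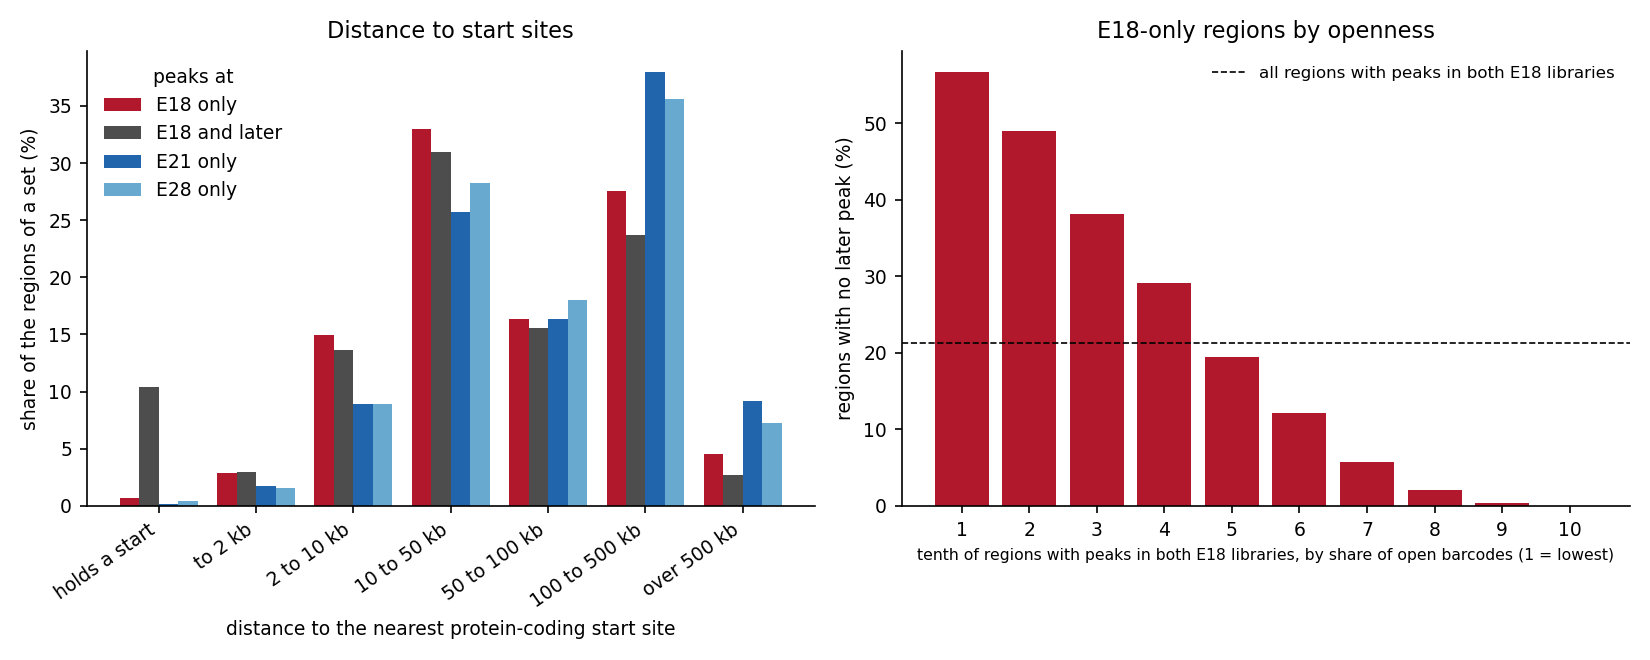
Left, share of the regions of each set (%) by distance to the nearest protein-coding start site, for regions with peaks at E18 only, at E18 and later, at E21 only and at E28 only. Right, share of E18 regions without a later peak (%) in each of 10 equal classes of openness; it falls from 56.6% in the lowest class to 0 in the highest, and the dashed line marks 21.3%.

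E18-only regions were narrow and open in few cells. Their median width was 443 bp and 94.2% were under 1000 bp, against a median of 986 bp for the regions with peaks at E18 and later. These are widths of merged regions, which join peaks of more libraries where a later peak was present. By the bases covered by E18 peaks alone (mean of both libraries) the medians were 384.5 and 768.5 bp. The E21-only (401 bp, 97.8% under 1000 bp) and E28-only regions (498 bp, 93.9%) were narrow as well. The median share of barcodes with a cut site was 0.578% in E18 ZZ and 0.625% in E18 DZ, against 1.58% and 1.70% for regions with a later peak. In their own stage, E21-only regions were open in a median of 0.571% (ZZ) and 0.514% (DZ) and E28-only regions in 0.765% and 1.12% of barcodes, so narrow regions open in few cells were found at each stage. A median E18-only region held 109 counts in ZZ and 105 in DZ, and together these regions took 3.83% and 3.86% of the counts of the libraries. When E18 regions were ranked by openness into 10 equal classes, 56.6% of the lowest class (open in up to 0.452% of barcodes) were E18-only, as were 19.5% of class 5, 64 regions of class 9 and 0 of the 17640 regions of class 10, which were open in at least 8.05%.

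The E18 levels of most E18-only regions lay above the lowest levels of the regions that the later libraries called, and in the lower part of their range. In all, 34097 of them (90.9%) had a mean E18 level, as CPM (counts scaled to a fixed total per library), at or above the 5th percentile of called regions in each of the 4 later libraries, and the lower quartile of called regions was reached by 44.2% (E21 ZZ), 55.3% (E21 DZ), 21.2% (E28 ZZ) and 23.6% (E28 DZ) of them. Only 1199 (3.19%) were at or above the median of called regions in each of the 4. By the share of open barcodes in place of CPM the last count was 2024 (5.39%). The 1199 had a median width of 1063 bp, a median distance of 49084 bp to a start site and 12.8% in exons. They lay a median of 2618 bp from the nearest later peak, close to the 2837 bp for all E18-only regions. The most open regions described next come from the upper end of this distribution.

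At the edge of the rule, 113 E18-only regions had a later peak within 50 bp without overlap, with median open shares of 0.489% (ZZ) and 0.566% (DZ). Just outside it, 1678 regions touched a later peak by at most 50 bp, with median open shares of 0.667% and 0.705%. A later peak lay within 500 bp of 1720 E18-only regions (4.58%), and 5701 (15.2%) lay over 10 kb from any.

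The 10 most open E18-only regions, by the mean of both libraries, were open in 5.07% to 8.09% of barcodes. The most open lay 404 kb from the start of NR2F2, an orphan nuclear receptor of mesoderm and veins, at chr7:83494675-83496185. It was open in 891 of 11243 barcodes of E18 ZZ (7.92%, exact 95% interval 7.43 to 8.44) and 801 of 10073 of E18 DZ (7.95%, 7.43 to 8.50), and the intervals overlapped. Its central sequence, printed above, holds 1 GATA, 1 MEIS and 1 homeobox match. A region 406 kb from BNC2, a zinc finger gene of mesenchyme, at chr1:206622313-206623654, was open in 8.09% of ZZ (7.60 to 8.61) and 5.93% of DZ barcodes (5.47 to 6.41). Here the intervals, which cover counting error only, did not overlap.

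The others were near LOC100511905 (7.66% in ZZ and 6.70% in DZ), in an intron 4.4 kb from the start of DDX60 (6.19% and 6.52%), near FAM198B (5.78% and 6.72%), near ABHD5, a cofactor of triglyceride breakdown (7.01% and 5.38%), in an intron near SAMD4A (5.72% and 5.62%), in an exon near LSMEM2 (5.96% and 5.10%), in an intron near PIP4K2A, a phosphoinositide kinase (5.25% and 5.39%) and near AP1S3 (5.07% and 5.45%). The intervals also did not overlap at ABHD5, where ZZ was higher (lower bound of 6.54 in ZZ, upper bound of 5.84 in DZ). Nor did they at FAM198B, where DZ was higher (5.36 to 6.23 in ZZ against 6.24 to 7.23), and they overlapped at the remaining regions. The called peaks differed in length, covering 1680 bp in ZZ and 1162 bp in DZ at ABHD5. At BNC2 they covered 1342 and 1201 bp, and at FAM198B 1063 and 1036 bp. A later peak lay between 1770 and 9685 bp away from each of the 10. All 10 were 1063 to 3636 bp wide, above the median of 443 bp. A wider region has more room for a cut site, and the part of width in these open shares was not tested. Of the 10, 3 lay on even-numbered autosomes, where regions were tested between clusters of E18 cells. The DDX60 region was higher in cluster 0, the fibroblast and mesenchyme-like and the myogenic-like cluster, the FAM198B region in those 3 and the neural progenitor-like cluster, and the PIP4K2A region in the endothelial-like cluster alone among the 8 tested (adjusted p under 0.05, edgeR). These calls set a cluster against the mean of the other clusters: in the fibroblast and mesenchyme-like cells of DZ the FAM198B region stood at 8.75 CPM, below the 12.3 CPM of all other DZ cells pooled.

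**Figure D2:**
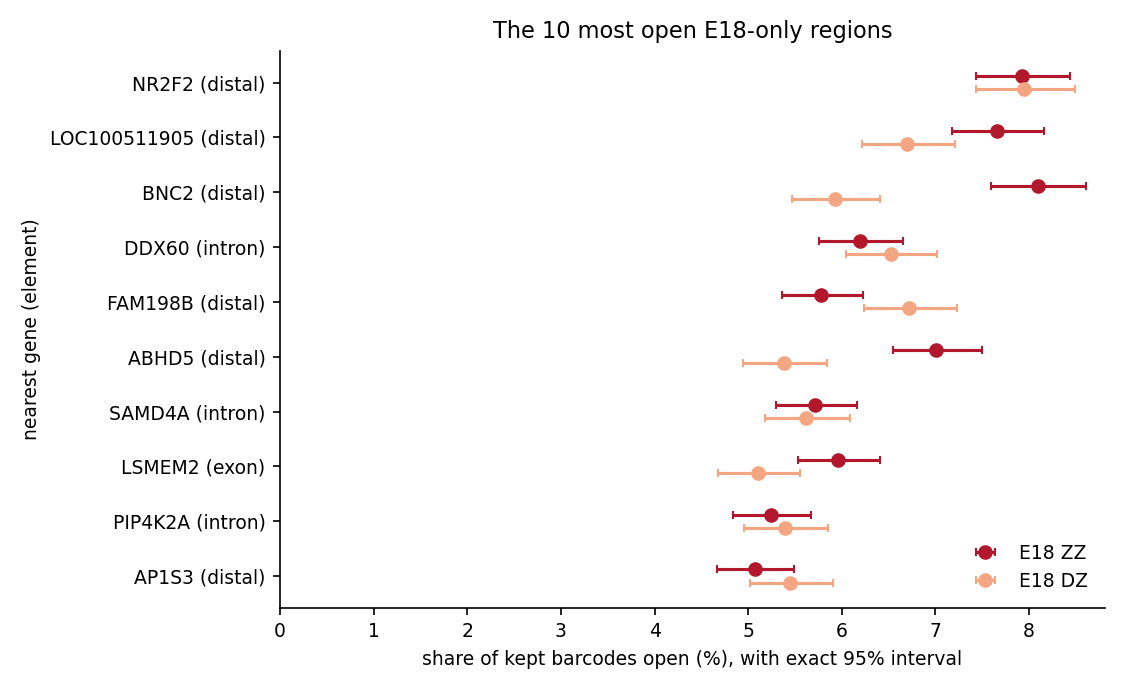
Share of kept barcodes with a cut site (%) in E18 ZZ and E18 DZ for the 10 most open E18-only regions, named by the nearest gene and element; bars are exact 95% binomial intervals. The region near NR2F2 is open in 7.92% and 7.95%, and the intervals of the breeds do not overlap for the regions near BNC2 and ABHD5, higher in ZZ, and FAM198B, higher in DZ. Cuts are counted only inside the called peaks of each library, which differ in length.

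The 5 widest E18-only regions were 3371 to 3748 bp wide. They lay in exons near XAB2, CPSF1 and MPG, in distal sequence near LOC100511905 and in an intron near NFE2L2, the regulator of the oxidative stress response. Apart from the LOC100511905 region they were open in 1.41% to 3.62% of barcodes. The MPG region had a later peak 202 bp away and was open in 2.84% of ZZ and 1.41% of DZ barcodes. Called peaks covered 3390 bp of it in ZZ and 1348 bp in DZ, so the 2 shares are not over like lengths.

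Levels of E18-only regions in ZZ and DZ were compared as values, since each breed had 1 library. Over the 37531 regions the log2 CPM values of ZZ and DZ were correlated (Pearson 0.553, Spearman 0.616), which is across regions that share a library and a depth and not across replicates. With a pseudocount of 0.1 CPM, 3821 regions were over 2-fold higher in DZ and 4671 in ZZ, 22.6% in all. The ratio followed the called length, with a correlation of 0.902 between the log2 ratio of levels and the log2 ratio of covered bases. Among the 23604 regions whose covered length was within 1.5 times, 1.95% differed by over 2-fold. In 530 regions 1 library held a peak without any count in kept barcodes. The breed, the sow and the library cannot be told apart here.

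E18-only regions were spread over 10589 genes by nearest start site, of the 17321 genes nearest to any E18 region, and 3900 genes had 1 only. A total of 773 genes had at least 10, which together took 11215 regions (29.9%). The 12 genes with most included genes of neurons, adhesion and signalling. NRXN3, a synaptic adhesion gene, had 42 of its 116 E18 regions in the set (36.2%), of which 39 lay in introns. WWC1, an upstream regulator of the Hippo pathway, had 42 of 130 (32.3%), with 37 in introns. ADGRL2, an adhesion receptor, had 41 (30.8% of its E18 regions) and RBFOX1, a splicing factor of neurons and muscle, 40 of 157. Of the signalling genes, NRG1, the ligand of the ERBB receptors of glia and heart, had 38 of 93 (40.9%), EPHA7, an ephrin receptor, 34 of 88 (38.6%) and EFNA5, an ephrin ligand, 33 of 135 (24.4%).

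GATA3, a zinc finger factor of kidney duct, ectoderm and sympathetic neurons, had the highest share of the 12, with 34 of 68 E18 regions E18-only. Of those 34, 31 lay in distal sequence, from 5019 bp to 642964 bp from the start, and their highest open shares were 1.33% in ZZ and 2.13% in DZ. The remaining genes of the 12 were PCDH7 with 36 of 94, RORA, a nuclear receptor, with 33 of 115, TENM4 with 33 of 155 and CELF4 with 32 of 120. The lowest share was 21.3%, at TENM4. Over the 2561 genes with at least 20 E18 regions the median share was 20.8% and the 95th percentile 40.0%, so of these 12 NRG1 and GATA3 lay above that percentile. The genes were ranked by the number that the rule gave, so no more is read from it.

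**Figure D3:**
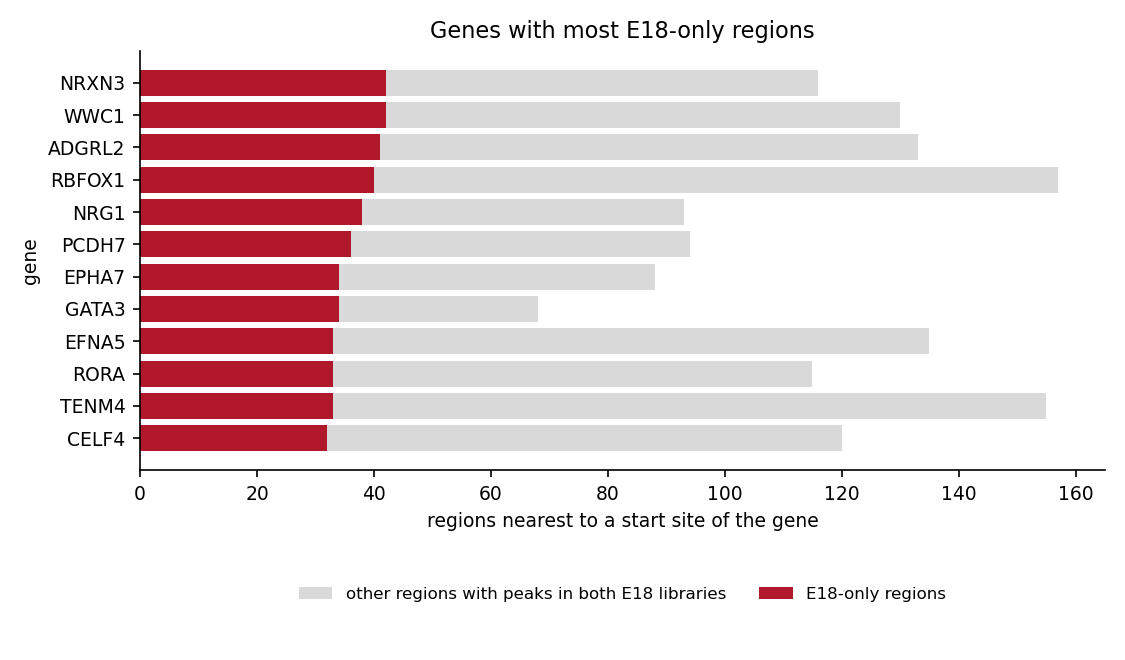
Number of regions nearest to a start site of each of the 12 genes with most E18-only regions; red marks E18-only regions and grey the other regions with peaks in both E18 libraries. NRXN3 and WWC1 have 42 each, and at GATA3 34 of 68 are E18-only.

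Gene lists of embryonic tissues and pathways were read against the 21.3% of all E18 regions. Of 23 lists, 16 lay below and 7 above, with shares from 5.81% to 25.2%. The lists were chosen with earlier results of these data known, and counts of this size near the background are not a result about a list.

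HOX clusters, the genes of axial identity, had the lowest share, with 5 of 86 E18 regions E18-only (5.81%), of which 3 lay near HOXB1 and 1 each near HOXC13 and HOXD1. The Hedgehog pathway had 44 of 343 (12.8%), with 8 of 37 regions at the ligand gene SHH, 7 of 15 at the antagonist HHIP and 6 of 62 at the effector GLI3. The neural crest list had 51 of 343 (14.9%), the sarcomere and muscle fibre list 29 of 177 (16.4%) and the cell cycle list 62 of 360 (17.2%). Regions near MYC and MYCN, the growth regulators, made up 23 and 17 of those 62.

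The highest shares were those of the cardiac list (84 of 333, 25.2%), the pluripotency and early embryo list (63 of 251, 25.1%), the epithelial and endoderm list (43 of 177, 24.3%) and the intermediate mesoderm and kidney list (118 of 504, 23.4%). Counting only regions within 50 kb of a start site, where the background was 19.4%, the kidney list fell below it (18.7%) and the cell cycle list lay above it (20%), while the cardiac, early embryo and epithelial lists stayed above (21.6% to 22.9%). At the cardiac genes, ISL1, a factor of the second heart field and of motor neurons, had 17 of 54, GATA6 15 of 46 and TBX20 10 of 30. In the early embryo list OTX2, a head and forebrain factor, had 16 of 31 (51.6%), KLF4 10 of 69 and NANOG 8 of 34. GATA3 supplied 34 of the 118 in the kidney list, OSR1 19 and SALL1 17.

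The lists closest to the labelled tissue sat near the background. The dermomyotome and myogenic list had 112 of 532 (21.1%), led by DACH1 (21 of 64), MEF2C (14 of 64) and EYA1 (11 of 35). Segmentation clock and Notch genes had 69 of 332 (20.8%), with 20 of 75 at the ligand gene JAG1, 9 of 29 at the WNT antagonist DKK1 and 9 of 68 at the oscillating repressor HES1. Caudal and neuromesodermal factors had 46 of 205 (22.4%), with 22 of 70 at SOX2 and 9 of 26 at CYP26A1, which degrades retinoic acid. Sclerotome and cartilage genes had 113 of 576 (19.6%), with 30 of 100 at SOX5, 19 of 65 at MATN1 and 14 of 73 at SOX6.

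The remaining lists also lay within a few points of the background. The neural tube patterning list had 113 of 527 (21.4%) and the proneural and neuronal list 80 of 350 (22.9%). Of the signalling pathways, BMP and TGF-beta had 164 of 787 (20.8%), WNT 191 of 1008 (18.9%), FGF 130 of 695 (18.7%) and retinoic acid 61 of 316 (19.3%). LEF1, a nuclear effector of WNT, had 14 of 31 E18-only, 13 of them in introns, with 1 open in 4.38% of ZZ and 4.03% of DZ barcodes at most. The matrix list had 117 of 573 (20.4%), the MEIS and PBX list 61 of 337 (18.1%), the endothelial and blood list 73 of 398 (18.3%) and the ribosome and housekeeping list 19 of 103 (18.4%).

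The sequence of E18-only regions was described in the central 300 bp of the merged region. This window takes in more of an E18-only region (median width 443 bp) than of a later-shared region (986 bp). The midpoint of a wide region need not be its most open part, so the windows of these 2 sets are not fully alike. Their median GC content was 48.7%, close to the median for the regions with peaks at E18 and later (50%), and above the 43.0% of E21-only and 41.7% of E28-only regions. The upper quartiles were 54.0% and 57.7% for E18-only and later-shared regions. The letters of the nuclear receptor half-site AGGTCA were found in 32.7% of E18-only regions, against 20.2% of the regions with a later peak, 23.0% of E21-only and 10.5% of E28-only regions. GATA letters were found in 21.1%, against 13.2%, 15.0% and 15.1% in the same order. FOX letters were found in 6.19%, against 4.20%, 3.47% and 3.22%, and TEAD letters in 24.5%, against 19.6%, 19.1% and 22.8%. The CTCF motif was in 1.41% of E18-only regions and 3.47% of those with a later peak, and the GC box in 10.8% and 18.7%. CDX and posterior HOX letters were in 11.7% of E18-only and 12.7% of later-shared regions, against 23.2% of E21-only and 23.4% of E28-only regions. E-box CAGCTG letters were in 21.4% of E18-only regions, 23.9% of those with a later peak, 24.8% of E21-only and 22.2% of E28-only regions. The remaining motifs were in 26.0% (MEIS), 9.45% (AP-1), 7.99% (TAATTA), 5.80% (TCF and LEF), 5.02% (SOX), 1.64% (octamer), 1.26% (T-box), 0.482% (MEF2) and 0.0187% (NFI) of E18-only regions, beside 21.6%, 10.96%, 6.66%, 4.67%, 3.83%, 1.66%, 1.11%, 0.621% and 0.0324% of those with a later peak. A match is a run of letters and not a bound site.

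Within a GC content of 40 to 50% the GATA letters were in 26.2% of E18-only and 18.1% of later-shared regions, the half-site in 32.7% and 21.7%, FOX in 7.35% and 5.41% and CTCF in 1.05% and 3.07%. The 4 differences kept their direction there.

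Which cells of the E18 libraries carried the E18-only regions was a measurement that the rule had not used. Cells were clustered on regions of odd-numbered autosomes with peaks in all 6 libraries, none of which was E18-only, and counts summed per library and cluster were tested on even-numbered autosomes. Of the 10 clusters, 8 had at least 400 cells in each E18 library and were tested. A cluster was called like the cell type with the highest mean log2 fold of its fixed markers among types with at least 3 markers raised, and was left unnamed when another type had as many or more raised. The neural progenitor-like cluster (cluster 1; 1903 ZZ and 2869 DZ cells) had 7 of 10 markers raised and also 6 of 7 neuron markers. As a share more neuron markers were raised, so this name does not tell progenitors from neurons. The fibroblast and mesenchyme-like cluster (cluster 2; 2351 and 1658 cells) had 3 of 9 raised, the myogenic-like cluster (cluster 3; 865 and 763 cells) 7 of 12, the neural crest and glia-like cluster (cluster 5; 561 and 705 cells) 5 of 9, the epithelial-like cluster (cluster 6; 478 and 588 cells) 9 of 10 and the endothelial-like cluster (cluster 7; 440 and 527 cells) 10 of 10. Among the 10 genes of largest fold in each of these clusters, a marker of the name was found in the endothelial-like cluster alone (CDH5).

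Clusters 0 and 4 were left unnamed. Cluster 0 (3301 and 2252 cells) had the highest mean log2 fold for the cardiac markers (0.54), but 4 of 9 cardiac and also 4 of 9 fibroblast and mesenchyme markers raised, and MYL4 and MUSK stood among its 10 genes of largest fold. More fibroblast and mesenchyme markers were thus raised in cluster 0 than in the cluster named for them, whose name rests on the rule alone. Cluster 4 (1071 and 443 cells) had the highest mean for the intermediate mesoderm markers (0.49, with 3 of 8 raised), while more epithelial markers were raised (4 of 10, mean 0.27). Myogenic-like cells were 7.69% of ZZ and 7.57% of DZ cells, so most cells of these somite libraries carried other markers. Small neural progenitor-like and blood-like clusters (79 to 189 cells per library) were not tested.

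Of the 16465 E18-only regions on even-numbered autosomes, 15940 passed the minimum of 50 counts and were tested beside 63163 other E18 regions. Each cluster was compared with the mean of the other clusters by edgeR (quasi-likelihood test, the library as a block), and a region was called at a Benjamini-Hochberg adjusted p under 0.05. The samples of this test are cell groups of 2 libraries, 1 of each breed. With the library as a block, p measures how differences between clusters varied between the 2 libraries, and not a spread between animals. A total of 12894 of the tested E18-only regions (80.9%) were higher in at least 1 cluster, against 81.0% of the other E18 regions. The E18-only regions were higher in exactly 1 cluster in 6735 cases, in 3 or more in 1332, and 3046 were higher in none. The split by number of clusters is not given here for the other E18 regions, so it is not read as a trait of E18-only regions.

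Cluster 0 carried the most E18-only regions, with 3770 higher (23.7%), beside 19.1% of all regions tested. With finer clusters (resolution 0.6) cluster 0 had no single match by name, and the largest count was 3148, in the neural progenitor-like cluster, so the first place depends on how the cells were divided. The epithelial-like cluster carried 2813 (17.6%), beside 12.8% of all. In the neural progenitor-like cluster 3166 were higher (19.9%), beside 23.4% of all, and in cluster 4 there were 2415 (15.2%), beside 16.1%. The fibroblast and mesenchyme-like cluster had 1982 (12.4%), beside 18.3%, and the myogenic-like cluster 2247 (14.1%), beside 18.4%. The neural crest and glia-like cluster had 2344 (14.7%), beside 17.0%, and the endothelial-like cluster 1774 (11.1%), beside 17.4%. E18-only regions were called higher more often than all regions in cluster 0 and the epithelial-like cluster and less often in the other 6, with no test of these differences between shares.

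The tested E18-only regions held a median of 215 counts against 691 in the other E18 regions, so the calls were also compared within a band of counts. Among regions with 100 to 300 counts, a band chosen after the data were seen, the shares of E18-only and other regions were 20.5% and 14.9% in cluster 0 and 16.2% and 9.75% in the epithelial-like cluster. They were 11.1% and 17.7% in the fibroblast and mesenchyme-like, 12.8% and 18.5% in the myogenic-like, 13.9% and 16.8% in the neural crest and glia-like and 10.4% and 12.1% in the endothelial-like cluster. In the neural progenitor-like cluster (18.7% and 15.8%) and cluster 4 (13.7% and 10.3%) the order turned, so for these 2 clusters the direction depended on the counts. When each cluster was instead compared with the summed counts of all other cells, 1493 E18-only regions (9.37%) were higher in the epithelial-like cluster, beside 8.63% of all, and 3884 (24.4%) in cluster 0, beside 22.2%. The same comparison gave 1499 (9.40%, beside 13.3% of all) in the neural crest and glia-like and 1125 (7.06%, beside 14.8%) in the endothelial-like cluster.

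**Figure D4:**
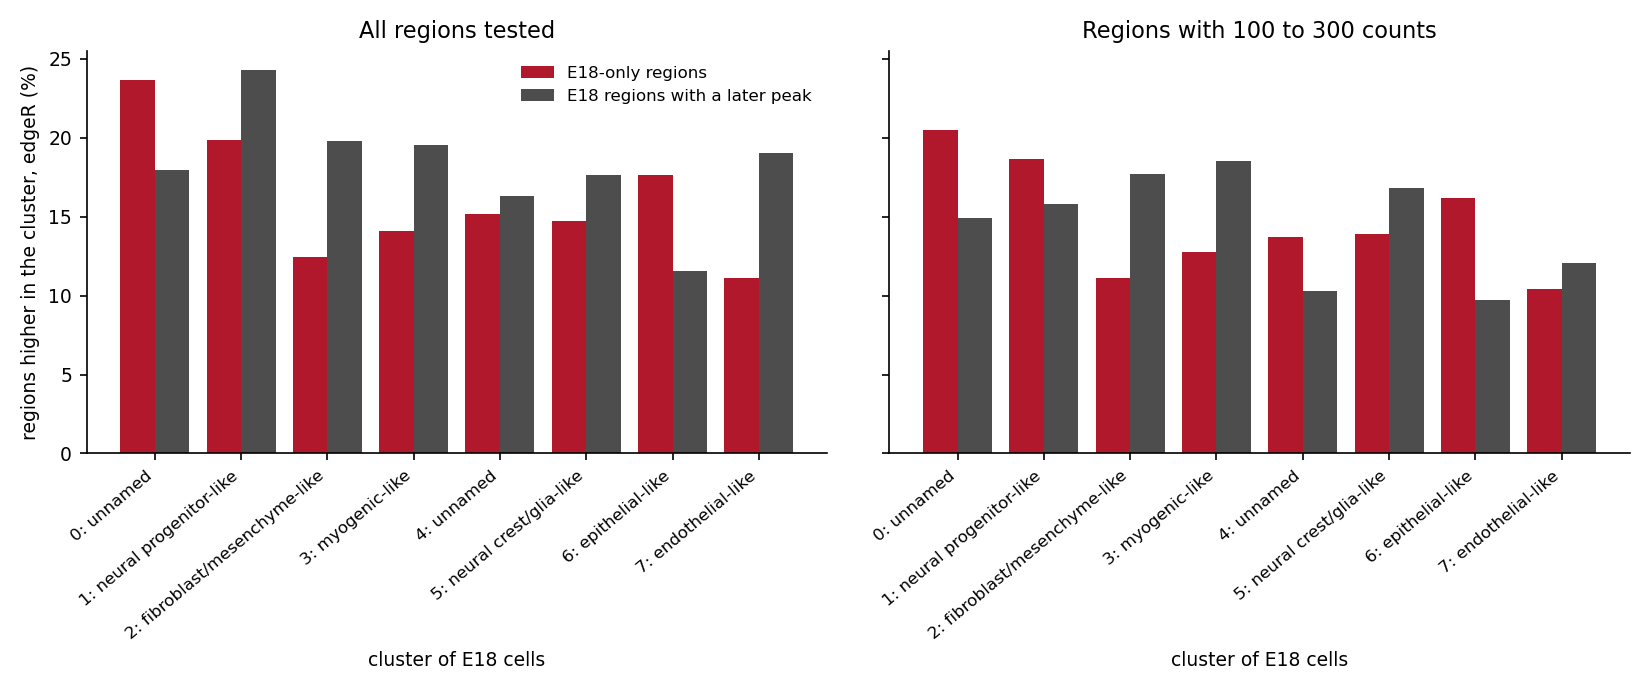
Share of regions called higher in each cluster of E18 cells (%), edgeR adjusted p under 0.05, for E18-only regions and E18 regions with a later peak, over all regions tested (left) and over regions with 100 to 300 counts (right). E18-only regions have the taller bars in cluster 0 and the epithelial-like cluster in both panels, and in clusters 1 and 4 on the right panel alone.

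Motif letters differed between the E18-only regions of different clusters. GATA letters were in 39.8% of those higher in cluster 0, against 20.6% of all E18-only regions tested and 21.6% of the other E18 regions higher in cluster 0. They were also in 26.2% of those higher in the endothelial-like and 25.7% in the epithelial-like cluster, where the other E18 regions had 11.8% and 14.7%. The region near LOC102167273 printed above, with 3 GATA matches, is from cluster 0. The nuclear receptor half-site was in 49.3% of those higher in the fibroblast and mesenchyme-like and 48.6% in the myogenic-like cluster. It was in 33.1% of all E18-only regions tested and in 23.5% and 24.3% of the other E18 regions of those clusters. The ANO3 and GALNT7 regions printed above each hold 1, ANO3 as 1 of 4 such regions among the 5 named for its cluster and GALNT7 as the only one of its 5.

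SOX letters were in 10.4% of the E18-only regions higher in the neural progenitor-like, 8.19% in the neural crest and glia-like and 8.17% in the endothelial-like cluster, against 4.92% of all tested. The other E18 regions higher in those clusters had them in 6.25%, 6.65% and 4.24%. SOX factors are regulators of all 3 of these lineages. FOX letters were in 10.3% and TEAD letters in 30.5% of those higher in the epithelial-like cluster, against 6.08% and 23.8% of all tested and 6.51% and 25.1% of the other E18 regions of that cluster. E-box CAGCTG letters, which myogenic bHLH factors read, were in 29.7% of those higher in the myogenic-like cluster, against 21.6% of all tested and 31.1% of the other E18 regions of that cluster. The many regions of a cluster share its cells, and these shares are descriptions.

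Among the gene lists, 47 of 80 tested E18-only regions near cardiac genes were higher in cluster 0 (58.8%), against 23.7% of all E18-only regions. They lay near GATA6 (11), HAND1 (8), ISL1 (8), TBX20 (7), TBX5 (5), GATA4 (4) and MYOCD (4), transcription factors of the heart and its progenitors. HAND1, TBX20, TBX5 and GATA4 are also among the markers that were read to name clusters, and ISL1 is in the proneural list too. Shares by cluster of the other E18 regions near the same genes are not given here for any list or gene. No trait of E18-only regions is therefore read from these list shares. Of 53 regions near BMP and TGF-beta genes 24 were higher in cluster 0 (45.3%), 8 near the receptor gene BMPR1B, 8 near the ligand gene INHBA and 5 near TGFB2. In the epithelial-like cluster, 14 of 28 regions near epithelial and endoderm genes were higher, beside 17.6% of all E18-only regions tested, 5 of them near GRHL2 and 4 near CDH1, the gene of E-cadherin. The endothelial-like cluster had 16 of 42 near endothelial and blood genes (38.1%), beside 11.1% of all, with 5 near the VEGF receptor gene KDR, 4 near LMO2, 3 near SOX17 and 2 near FLT4. GRHL2, CDH1, KRT19 (1 of the 14 regions) and KDR are markers of these clusters too. E18-only regions were left out of the counts read to name clusters, but other E18 regions at these genes were read. The shares are therefore not independent of the names.

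Regions near the genes of muscle and neural tube were higher in several clusters. Of 53 regions near dermomyotome and myogenic genes, 11 were higher in the myogenic-like cluster (20.8%, beside 14.1% of all E18-only regions tested), 4 near EYA1, 4 near PAX7 and 2 near MEF2C. PAX7 and MEF2C are also markers of that cluster, so this share is not independent of its name. In cluster 0 and in the fibroblast and mesenchyme-like cluster 13 were higher (24.5% in each), beside 23.7% and 12.4% of all, so the share in cluster 0 was that of the background. Of 68 near neural tube patterning genes, 23 were higher in the neural progenitor-like cluster (33.8%, beside 19.9% of all), 6 each near IRX5 and LMX1A, and 21 in cluster 0 (30.9%, beside 23.7%). PAX6, a marker of the neural progenitor-like cluster, had 4 of the 23. The 34 regions near GATA3 were all tested, and 14 were higher in the epithelial-like cluster (17.6% of all E18-only regions) and 13 in cluster 0 (23.7% of all). WWC1 had 15 of 41 higher in cluster 0, 13 in the neural progenitor-like (19.9% of all) and 12 in the epithelial-like cluster. CELF4 had 12 of 30 in the myogenic-like (14.1% of all), 11 in cluster 0, 8 each in the neural progenitor-like and the fibroblast and mesenchyme-like (12.4% of all) and 7 in the endothelial-like cluster (11.1% of all). The regions of NRXN3, RBFOX1, NRG1, EPHA7, RORA and TENM4 lay on odd-numbered chromosomes and were not tested.

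**Figure D5:**
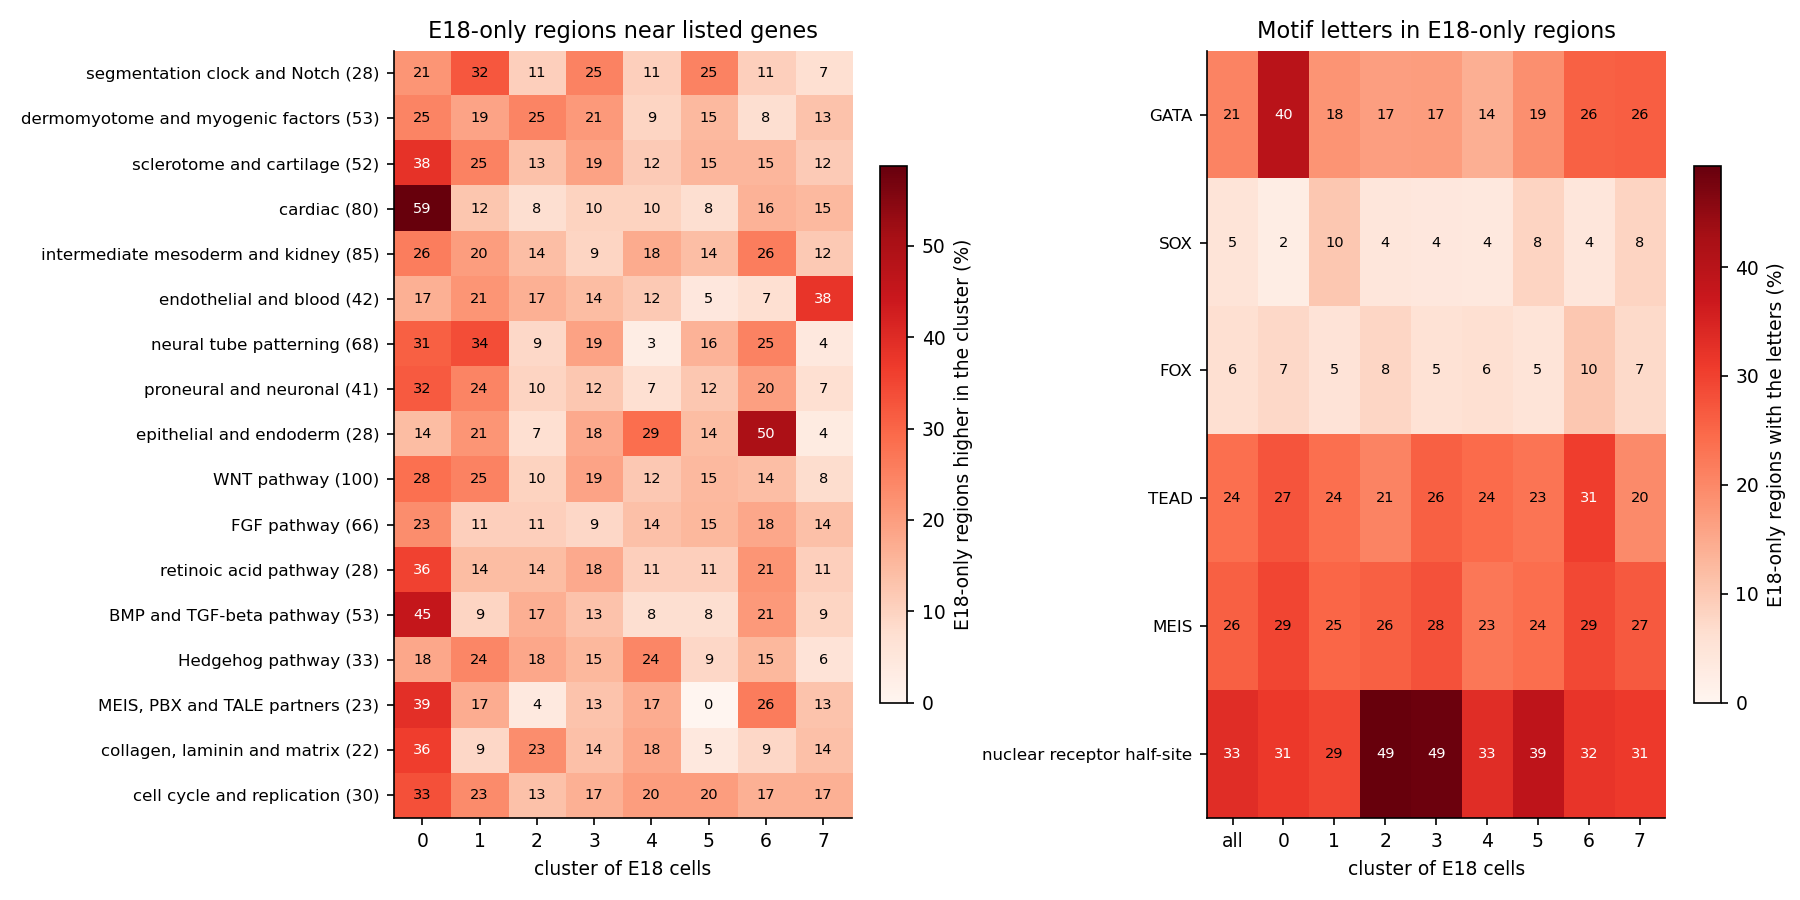
Left, share of tested E18-only regions near each gene list that were higher in clusters 0 to 7 (%; regions tested in brackets; lists with at least 20). Right, share of E18-only regions holding the letters of 6 motifs (%), for all tested and for those higher in each cluster; the cardiac list stands at 58.8% and GATA letters at 39.8% in cluster 0, and the half-site at 49.3% and 48.6% in clusters 2 and 3.

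The level of single E18-only regions differed widely between the clusters, for most of those named in both libraries and for some mainly in 1. In the endothelial-like cluster the largest fold was at an exon near VPS25 (chr12:20085646-20086089), with 20.3 CPM in ZZ and 14.3 CPM in DZ against 0.172 and 0.330 CPM in all other cells (log2 fold 8.42 over the mean of the other clusters, adjusted p = 6.04e-27, edgeR). It was open in 11.4% and 9.68% of the cells of that cluster, and it was also higher in the neural crest and glia-like cluster (1.38 and 2.38 CPM, log2 fold 4.68, adjusted p = 2.31e-08, edgeR). An intronic region near KDR (chr8:41839287-41839825), whose sequence with 1 GATA match is printed above, had 12.6 CPM in ZZ and 22.3 in DZ against 0.101 and 0.279 (log2 fold 7.27, adjusted p = 1.29e-26, edgeR). Regions near IST1 (18.6 and 14.1 CPM), CREB5 (11.6 and 17.4) and TMEM26 (7.23 and 12.6) completed the 5 largest, each at or below 0.177 CPM in the other cells. All 5 were high in both libraries.

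In the myogenic-like cluster an intronic region 6.0 kb from the start of ANO3, a member of the anoctamin family (chr2:33898495-33899126), had 15.8 CPM in ZZ and 24.0 in DZ against 0.484 and 0.644 in the other cells (log2 fold 5.58, adjusted p = 8.26e-29, edgeR). It was open in 10.1% and 14.9% of myogenic-like cells. An intronic region 2.7 kb from NUDT5 had the largest fold, with 6.66 and 5.43 CPM against 0.0903 and 0.270 (log2 fold 6.75, adjusted p = 2.35e-18, edgeR). Regions near LOC102164773 (11.1 and 11.7 CPM) and RNF133 (6.22 and 7.89 CPM) were at similar levels in both libraries, and 1 near LOC100624435 was not (2.75 in ZZ and 0.717 in DZ). Ratios between the libraries followed the called length over all E18-only regions (correlation of 0.902), and its part at this region was not tested. None of these 5 lay nearest to a gene of the myogenic list.

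In the epithelial-like cluster, regions in introns near MAGI3, a scaffold of epithelial junctions (13.8 CPM in ZZ and 10.98 in DZ), and MARK2, a polarity kinase (13.4 and 11.6), were at 0.262 to 0.687 CPM in the other cells pooled. Their log2 folds were 6.81 (adjusted p = 4.56e-20, edgeR) and 5.53 (adjusted p = 3.00e-18, edgeR). Both were also higher in cluster 4, MAGI3 at 4.25 and 4.16 CPM (log2 fold 5.13, adjusted p = 2.80e-12, edgeR) and MARK2 at 3.71 and 2.27 CPM (log2 fold 3.31, adjusted p = 3.47e-07, edgeR). The others were near C14H10orf35, LOC100524190 and DUSP27, with 2.03 to 8.07 CPM in the cluster. The MARK2 sequence above holds 1 FOX match, and the other 4 have none.

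In the neural progenitor-like cluster a distal region 446 kb from AJAP1 had 6.14 CPM in ZZ and 5.07 in DZ against 0.0709 and 0.100 (log2 fold 6.87, adjusted p = 3.06e-21, edgeR). Regions near URB2 (3.22 and 3.72 CPM) and MED30 (3.32 and 4.95) were alike in the libraries. That near LOC100151870 (0.198 and 2.63) rested mainly on DZ, but called peaks covered 22 bp of it in ZZ and 333 bp in DZ. Counts exist only inside called peaks, so its levels in the 2 libraries are not over like lengths. In the fibroblast and mesenchyme-like cluster all 5 were seen in both libraries, near MTR (6.43 and 5.00 CPM), GALNT7 (6.26 and 9.57), LECT2 (5.33 and 7.34), FBN2, the gene of a fibrillin of embryonic matrix (7.53 and 7.68), and DTWD2 (1.13 and 4.81). For the GALNT7 region the other cells had 0.596 and 0.567 CPM (log2 fold 5.62, adjusted p = 5.65e-20, edgeR), and the region was also higher in the myogenic-like cluster, at 3.73 and 2.87 CPM (log2 fold 4.20, adjusted p = 4.67e-10, edgeR).

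In the neural crest and glia-like cluster, the region near SPIDR, with 1 SOX match in the sequence above, had 5.26 and 6.84 CPM against 0.223 and 0.262 (log2 fold 6.03, adjusted p = 4.57e-16, edgeR). The other 4 rested mainly on DZ, with 0.138 to 1.11 CPM in ZZ and 3.17 to 9.61 CPM in DZ near LOC110261338, SORCS1, CCL25 and CDH8. At the CDH8 region the cluster held 1 count in ZZ and 97 in DZ. Counts exist only inside the called peaks of a library. Over all E18-only regions the ratio of DZ to ZZ levels followed the called length (correlation of 0.902). The part of called length at these 4 regions was not tested, so they are not read as open in DZ alone. Of the regions named for these clusters, those near MED30, LECT2, DTWD2, NUDT5, LOC100624435, LOC102164773, SPIDR, LOC110261338 and LOC100524190 were also called higher in at least 1 other cluster than in the mean of the other clusters. They stood there at 0 to 1.80 CPM, and such a call need not mean a level above all other cells pooled. The MED30 region was called in the neural crest and glia-like cluster (log2 fold 2.77, adjusted p = 0.0123, edgeR). It stood there at 0.830 CPM in ZZ and 0.396 in DZ, against 0.604 and 1.61 in the other cells pooled. Clusters 0 and 4 had no name and so no rule for single regions. After their values were seen, the intronic region near LOC102167273 was chosen from cluster 0 for its sequence, with 4.38 CPM in ZZ and 2.74 in DZ against 0.355 and 0.0625 (log2 fold 5.33, adjusted p = 3.17e-14, edgeR). It was also called higher in the epithelial-like cluster than in the mean of the other clusters (log2 fold 2.68, adjusted p = 0.0235, edgeR). There it stood at 1.42 CPM in ZZ and 0.323 in DZ, below the 1.58 and 0.700 CPM of all other cells pooled.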

How the data were processed

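Chromatin accessibility was profiled in 6 single-cell ATAC-seq libraries (E18, E21 and E28, ZZ and DZ). The authors aligned reads to a Sscrofa11 reference and called peaks in each library with Cell Ranger ATAC (1.2.0 in the matrix headers). In the deposited matrices the values are counts of Tn5 cut sites in each peak and barcode, not normalized, and the deposited peak lists give starts and ends without a score. Barcodes with 2000 to 30000 counts of cut sites were kept, whereas the study set its limits on fragments. Its filters on mitochondrial share, start site enrichment, nucleosome signal and the fraction of each barcode inside peaks were left out, and no doublet caller was run. The upper count limit was the one guard against doublets. Depth ranged from 89816504 to 133037579 kept counts per library. Exact binomial intervals (95%) cover counting error only.

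Peaks were merged with a minimum overlap of 1 bp. Elements and start sites came from the RefSeq annotation of Sscrofa11.1, in the order exon, promoter (2000 bp upstream), 5′ UTR, 3′ UTR, intron and distal. Openness is the share of kept barcodes with a cut site, and CPM is the count scaled to 1e6 counts in peaks of the library or cluster. The E18-only regions, the gene lists and the tests were chosen with earlier results of these data known. Regions named with values were the 10 most open, the 5 widest and, for each named cluster, the 5 with the largest log2 fold change among those past the threshold with the same sign in both libraries. Genes named were the 12 with most E18-only regions and the 3 with most in each list, and genes behind the count of a list in a cluster were named after their values were seen. One region that the rule selected in the neural progenitor-like cluster is not reported here.

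E18 cells were clustered on 33433 regions by latent semantic indexing (scikit-learn 1.9.0, 50 components, the first dropped) and Leiden clustering (leidenalg 0.10.2, resolution 0.3, 10 neighbours in each library). Counts per library and cluster were tested with the edgeR quasi-likelihood test (edgeR 4.0.16, R 4.3.3, TMM, library as a block, minimum total of 50 counts) and Benjamini-Hochberg adjustment over all 79103 regions. The minimum of 400 cells per library for a tested cluster was chosen after the data were seen. The test was first run on simulated counts. Alternatives included DESeq2 1.42.0.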

Additional observations from a re-analysis of the deposited data

How the results depend on the processing

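The number of E18-only regions (37531) moved to 16486 with peaks open in at least 1% of barcodes, and leaving out 1 library gave 37847 to 62870, the highest without E18 DZ. It was 42943 with a reciprocal overlap of 50%, and 35811 or 30756 when no later peak lay within 500 or 1000 bp. The median open share (0.602% over both libraries) was 0.646% with 4000 to 60000 counts and 1.43% among the 4338 regions open in at least 1% in both libraries, whose median width was 836 bp, distance 45728 bp, exon share 10.8% and intron share 46.0%. With promoters ranked first, exons held 7.22% and promoters 3.10%. Within a GC content of 40 to 50%, a band added after seeing the data, GATA letters were in 26.2%, CTCF in 1.05% and FOX in 7.35% of E18-only regions. Against the summed other cells, an alternative added after seeing the data, 1499 E18-only regions were higher in cluster 5, 1493 in cluster 6 and 1125 in cluster 7, and the cause was not tested. In the band of 100 to 300 counts the difference in the share called higher between E18-only and other E18 regions turned from -4.43 to 2.84 percentage points in cluster 1 and from -1.15 to 3.43 in cluster 4. Restricted to genes within 50 kb, 18 of 23 lists lay below the background of 19.4%, with 17 on the same side; the segmentation clock and cell cycle lists moved above it, and the caudal, kidney, neural tube and proneural lists below. Without E18 ZZ or E18 DZ no test was possible, and the regions called higher that kept their direction were 3660 to 3684 in cluster 0, 2944 to 3052 in cluster 1, 1859 to 1898 in cluster 2, 2163 to 2185 in cluster 3, 2263 to 2363 in cluster 4, 2212 to 2247 in cluster 5, 2714 to 2717 in cluster 6 and 1693 to 1718 in cluster 7. The calls had used both libraries, so this agreement in direction follows in part from the selection and is no independent check. DESeq2, RLE size factors, other filters on low counts, halved cut sites, other barcode limits and a cluster resolution of 0.6 kept each cluster count within 1.5 times wherever the cluster could be matched by name. Clusters 0 and 4 could not be matched at either the resolution of 0.6 or 4000 to 60000 counts, nor cluster 2 at 0.6. No paired analysis was possible because, between stages, E18-only regions have no counts at E21 and E28; the test between clusters had the library as a block. Regions under 50 counts were not tested, and the tested E18-only regions held a median of 215 counts over both libraries.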

Other observations

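As a share of the E18 regions of a chromosome, E18-only regions ran from 15.2% on chromosome 12 to 24.9% on chromosome 8 among the autosomes. The share was 20.9% on X (779 of 3724), close to the 21.3% of all, and 15.5% on Y (11 of 71).

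Some genes had most of their E18 regions in the E18-only set. Among the 2561 genes with at least 20 E18 regions, chosen after their values were seen, the 6 highest shares were 65.0% near LOC100524732 (13 of 20), 59.5% near ARAP2 (25 of 42), 59.5% near FAM19A2 (22 of 37), 55.2% near LOC396566 (16 of 29), 55.0% near PRKCB, a protein kinase C gene (11 of 20), and 54.8% near ATP6V0D2, a subunit gene of the vacuolar proton pump (17 of 31). A region near KCNH8, a potassium channel gene with 11 of 21 regions in the set, was open in 4.07% of ZZ and 4.10% of DZ barcodes.

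E18-only regions higher in different clusters also differed in position. Those higher in the myogenic-like cluster lay a median of 68581 bp from a start site and those of the fibroblast and mesenchyme-like cluster 67029 bp, against 32029 bp in the endothelial-like cluster and 35303 bp in cluster 4. Exons held 10.8% of those higher in cluster 4 and 5.78% of those higher in cluster 0. Of the 3770 E18-only regions higher in cluster 0, 1584 were higher in no other tested cluster. So were 1305 of 3166 in the neural progenitor-like and 390 of 1982 in the fibroblast and mesenchyme-like cluster. The same counts for the other E18 regions are not given here, so no trait of E18-only regions is read from these.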
